A study of Homo sapiens with 5 samples.

Results

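CLDN11, CLDN1, CLDN3, CLDN4, CLDN7, CLDN12, OCLN, TJP1, F11R and CXADR are 10 genes of the tight junction, and the levels of their transcripts were followed across 5 arrays of MIAPaCa2 cells, an established and poorly differentiated line of human pancreatic ductal adenocarcinoma. The set was chosen by values of these same arrays: CLDN11 was selected on how far MP2-α2Δ cells lay above MP2-α9α2 cells, and the other genes were added for their place in the junction with their values also known. The values of all 10 genes are therefore given as a description, with no test. Of the 10 genes, 9 had at least 1 probe set that the array annotation mapped to them alone, among 19775 genes named that way on the array. F11R, a junctional adhesion molecule, had none and is given no value. The 9 genes held 21 probe sets, of which 16 were above the floor on at least 1 array, while 5 were below it on all 5 arrays.

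The study asked what re-expression of the α2 integrin, a collagen receptor lost from these cells, does to their gene expression. MP2-mock cells carried the empty vector and were kept in zeocin under standard tissue culture. MP2-α2 cells expressed full-length α2 from a viral promoter under zeocin and were kept either in standard culture (MP2-α2/TC) or on plates coated with collagenI at 25 µg/mL (MP2-α2/CI), so these arrays share a construct and differ in culture. MP2-α2Δ cells expressed α2 without its cytoplasmic domain, in zeocin, on the same concentration of collagenI. MP2-α9α2 cells expressed a chimera of the α9 ectodomain and transmembrane domain with the α2 cytoplasmic domain, in G418, on tenascin FNIII at 10 µg/mL. All were stable populations rather than clones, those with an integrin construct were panned on the ligand of that construct, and each was harvested below confluence and measured on 1 array. With 1 array per population no difference had a replicate check, no error could be computed, and the number of arrays limits the precision of every value below. The spread within a population was not measured. Below, the populations are called mock, α2/TC, α2/CI, α2Δ and α9α2 cells.

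Tight junctions seal the space between neighbouring epithelial cells. Claudins are membrane proteins with 4 transmembrane segments whose extracellular loops pair across that space and set which ions pass, and occludin sits beside them in the same strands. The cytoplasmic ends of claudins bind scaffold proteins such as ZO-1, encoded by TJP1, which tie the strands to actin, while F11R and CXADR are immunoglobulin-like adhesion molecules found at the same contacts. CLDN11 is best known from myelin of oligodendrocytes and from the barrier between Sertoli cells of the testis, and CXADR is the receptor through which coxsackieviruses and adenoviruses enter cells.

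Promoter sequence is shown for 3 of the genes, because CLDN11 had the largest difference of the set, CLDN7 gave no signal above background on any array and OCLN was above it on every array at all of its probe sets. RefSeq held a promoter of 300 bases, 250 before to 50 after a transcript start, for 8 of the 10 genes, with 14 starts in all, on build GRCh38.p14. The motifs searched, on both strands and with every match in capitals below, were CAGGTG, the E-box that repressors of the SNAI and ZEB families bind, GGGCGG, the GC box of Sp factors, and CCAAT, the box of NF-Y. The first CLDN11 start lies at chr3:170418618-170418917 on the plus strand, the second CLDN7 start at chr17:7262429-7262728 on the minus strand, and the second OCLN start at chr5:69492540-69492839 on the plus strand.
CLDN11: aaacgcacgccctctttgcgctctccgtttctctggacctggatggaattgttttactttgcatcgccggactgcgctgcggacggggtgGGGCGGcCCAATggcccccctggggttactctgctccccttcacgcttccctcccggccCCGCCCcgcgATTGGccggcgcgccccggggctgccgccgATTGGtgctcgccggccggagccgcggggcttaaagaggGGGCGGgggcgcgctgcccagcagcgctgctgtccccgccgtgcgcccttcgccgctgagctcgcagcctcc
CLDN7: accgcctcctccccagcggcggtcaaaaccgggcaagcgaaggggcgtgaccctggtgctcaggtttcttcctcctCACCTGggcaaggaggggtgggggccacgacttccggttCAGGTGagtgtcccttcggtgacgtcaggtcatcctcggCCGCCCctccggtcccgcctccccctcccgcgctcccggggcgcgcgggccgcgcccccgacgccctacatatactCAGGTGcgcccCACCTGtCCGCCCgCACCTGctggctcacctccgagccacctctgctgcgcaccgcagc
OCLN: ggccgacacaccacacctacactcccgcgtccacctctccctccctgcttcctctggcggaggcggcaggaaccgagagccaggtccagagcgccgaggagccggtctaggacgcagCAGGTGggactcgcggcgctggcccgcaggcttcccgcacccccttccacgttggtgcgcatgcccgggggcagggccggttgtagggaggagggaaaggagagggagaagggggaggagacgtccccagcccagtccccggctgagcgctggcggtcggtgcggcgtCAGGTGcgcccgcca
The CLDN11 window held 3 GC boxes, 3 CCAAT boxes and 0 E-boxes. The CLDN7 window held 5 E-boxes and 2 GC boxes, and the OCLN window held 2 E-boxes and neither of the other motifs. For CLDN7 and OCLN the start with the most E-boxes is shown. The other CLDN7 start held 0 E-boxes and 1 CCAAT box, the other OCLN start held 1 of each motif, and the other CLDN11 start held 1 GC box and neither of the others. Over 35116 RefSeq promoters of the same length, 20.6% held CAGGTG, 45.0% held GGGCGG and 34.6% held CCAAT, so each motif is common, and a match is a run of letters and not a measured binding site. Binding was not measured in these cells.

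Values are the authors' normalized log2 signals, so a difference of 1 is a 2-fold difference, and signals of different probe sets are not compared with each other. The floor of an array was the signal below which 95% of 107 odorant receptor probe sets fell, taken as genes that these cells do not use, and it lay between 2.21 and 2.27. The arrays of mock, α2/TC and α2/CI cells shared 1 minimum and those of α2Δ and α9α2 cells another, so the arrays were taken as normalized in 2 sets. The 27320 probe sets that exceeded the floor on every array had a median between 6.88 and 6.89 on the first 3 arrays, of 7.72 in α2Δ cells and of 7.69 in α9α2 cells. Between the sets, α2/CI and α2Δ cells shared the drug and the collagenI substrate, so they differed in construct and normalization set, which cannot be told apart. In every other pair across the sets the substrate differed as well, and against α9α2 cells the drug did too.

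The labelled cell type was checked against its markers. KRT8, a keratin of simple epithelia, read between 14.18 and 14.66, and KRT19 read between 11.74 and 12.99 at 201650_at, while E-cadherin and EPCAM were at or near the minimum of each array and VIM, a filament protein of mesenchymal cells, was between 15.48 and 15.85. Of the 7 genes of the epithelial list, 4 were above a log2 signal of 4 on any array. Of the 4 genes of the mesenchymal list, 2 were above it, VIM and ZEB1, while CDH2 (N-cadherin) and FN1 (fibronectin) were not. The endothelial, blood, oligodendrocyte and Sertoli lists had 1, 0, 1 and 1 genes above a log2 signal of 4 on any array, these being CLDN5, MBP and SOX9, and the fibroblast list had COL1A1 and COL1A2. MOG and SOX10 of the oligodendrocyte list were below the floor on all 5 arrays, while MAG of the same list was above the floor on at least 1 array but not above 4. The integrin constructs could not be checked. Probes for ITGA2 on this array lie outside the part of the gene that the α2 construct holds, as its makers describe it. ITGA2 was at or next to the minimum on the arrays of mock, α2/TC, α2/CI and α9α2 cells at both of its probe sets. It read 3.28 and 7.28 in α2Δ cells, where the source of that signal was not tested, and the 4 probe sets of ITGA9 were at the minimum on all 5 arrays. ITGB1, the β subunit that pairs with either, read between 13.57 and 14.84 at 211945_s_at. Population names below are those of the labels.

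CLDN11 stood well above the floor in 4 of the populations and close to it in α9α2 cells. Its probe set 228335_at read 9.63 in mock, 10.45 in α2/TC, 10.89 in α2/CI, 13.27 in α2Δ and 3.09 in α9α2 cells. The last of these is within 1 unit of the floor, and the order from low to high was α9α2, mock, α2/TC, α2/CI and α2Δ. The second probe set, 206908_s_at, read 5.53, 6.17, 6.28, 7.38 and 2.87 in mock, α2/TC, α2/CI, α2Δ and α9α2 cells, which is the same order with a narrower range. The remaining probe set, 1561105_at, was below the floor on all 5 arrays. Since no population had a second array, it was not measured whether neighbours in that order differ beyond the spread within a population. In these bulk RNA samples, fewer cells with CLDN11 and less CLDN11 RNA per cell cannot be told apart.

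**Figure D1:**
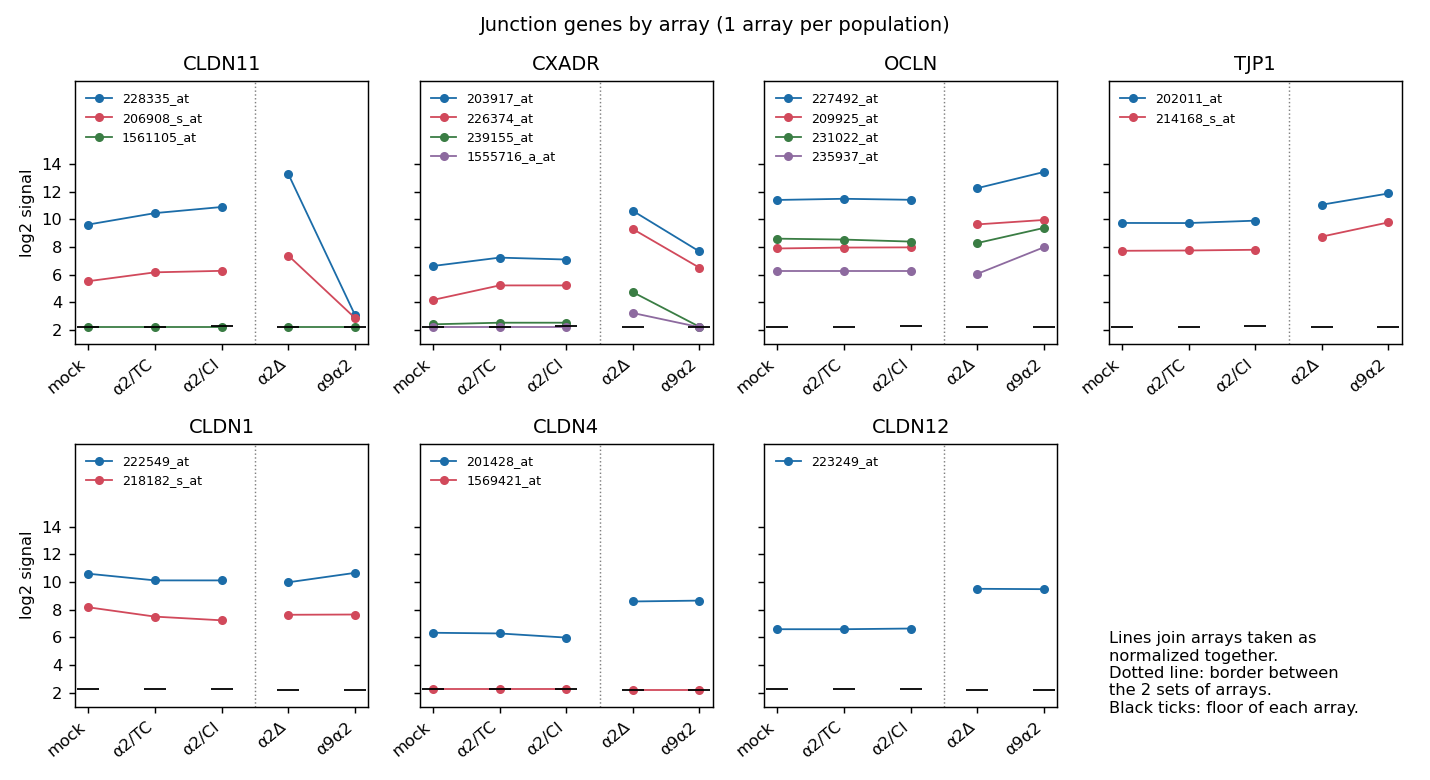
Log2 signal (vertical axis) of each probe set of the 7 junction genes above the floor, on the 5 arrays (horizontal axis), 1 point per array with no error bar because each population had 1 array. Lines join arrays taken as normalized together, the dotted line separates the 2 sets and black ticks are the floor. CLDN11 drops from 13.27 in α2Δ to 3.09 in α9α2 cells at its upper probe set, CXADR is also lower in α9α2 than in α2Δ cells, and OCLN and TJP1 slope the other way.

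Within the first set of arrays CLDN11 read higher in both α2 populations than in mock cells. At 228335_at the difference from mock was 0.83 (1.77-fold) in α2/TC cells and 1.27 (2.41-fold) in α2/CI cells, and α2/CI cells were 0.44 above α2/TC cells. At 206908_s_at the same differences were 0.64, 0.75 and 0.11. The 2 probe sets thus had the same sign in all 3 pairs, and of these 6 differences only that of 228335_at between α2/CI and mock cells passed 2-fold. Among all probe sets measured in a pair, that is above the floor on at least 1 of its arrays, 0.462% were at least 2-fold apart between α2/TC and mock cells, 0.492% between α2/CI and mock cells and 0.138% between α2/CI and α2/TC cells. By size of rise over mock, CLDN11 228335_at ranked 39 of 29696 measured probe sets in α2/CI cells and 87 of 29885 in α2/TC cells.

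In the second set of arrays, CLDN11 was 10.18 log2 units, or 1163-fold, higher in α2Δ than in α9α2 cells at 228335_at, which was the largest rise of 30975 probe sets measured in that pair. At 206908_s_at the difference was 4.51, or 22.8-fold, and ranked 71. Both folds rest on α9α2 signals near the floor, and with the floor set at a log2 value of 4 they were at least 619-fold (9.27) and at least 10.4-fold (3.38). This pair chose the gene, so the ranks describe the choice. In that pair 12.5% of measured probe sets were at least 2-fold apart, 7.56% higher and 4.95% lower in α2Δ cells.

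CXADR, the adhesion molecule and virus receptor, had the sign of CLDN11 in both α2 populations against mock cells and in α2Δ against α9α2 cells. Probe set 226374_at read 4.18 in mock, 5.23 in α2/TC, 5.23 in α2/CI, 9.30 in α2Δ and 6.50 in α9α2 cells. Probe set 203917_at read 6.63, 7.23, 7.10, 10.62 and 7.68 on the same arrays. Both were lowest in mock and highest in α2Δ cells. The rise over mock was 1.05 (2.07-fold) at 226374_at in both α2 populations, whose values were identical there, and was 0.61 in α2/TC and 0.47 in α2/CI cells at 203917_at. α2Δ cells were above α9α2 cells by 2.94 (7.66-fold) at 203917_at and by 2.80 (6.95-fold) at 226374_at. Probe set 239155_at read between 2.41 and 2.53 in the first 3 populations, 4.74 in α2Δ and 2.23 in α9α2 cells. The fourth, 1555716_a_at, was above the floor in α2Δ cells alone, at 3.23, which is at least 2.03-fold above α9α2 cells. All 4 probe sets were thus highest in α2Δ cells, although the last difference fell below 2-fold under other scalings. RefSeq lists CXADR, OCLN, TJP1 and CLDN7 pseudogenes, and which probe sets could also bind their transcripts was not tested.

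**Figure D2:**
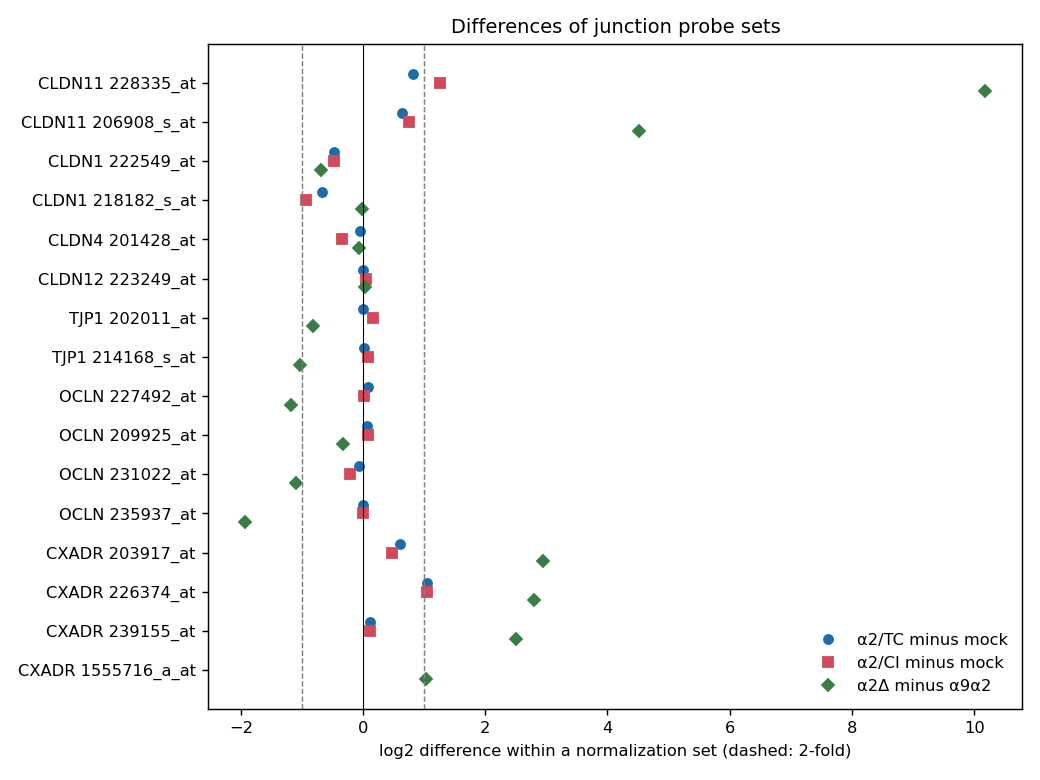
Log2 difference (horizontal axis) of each of the 16 junction probe sets above the floor, for α2/TC minus mock (circles), α2/CI minus mock (squares) and α2Δ minus α9α2 cells (diamonds), with dashed lines at 2-fold and 1 array per population. Only CXADR 226374_at and CLDN11 228335_at pass 2-fold over mock cells, while 10 probe sets pass it between α2Δ and α9α2 cells, 6 higher and 4 lower.

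OCLN and TJP1, the occludin and ZO-1 genes, had the opposite sign between α2Δ and α9α2 cells. OCLN 227492_at read 11.40, 11.49 and 11.41 in mock, α2/TC and α2/CI cells, 12.26 in α2Δ and 13.43 in α9α2 cells. It was thus nearly level over the first 3 populations and 1.17 (2.25-fold) lower in α2Δ than in α9α2 cells. OCLN 235937_at read 6.27 in each of the first 3 populations, 6.06 in α2Δ and 7.99 in α9α2 cells, a difference of 3.79-fold. OCLN 231022_at read between 8.39 and 8.61 in the first 3, 8.29 in α2Δ and 9.38 in α9α2 cells, and OCLN 209925_at between 7.90 and 7.98, then 9.64 and 9.96. Of the 4 OCLN probe sets, all were lower in α2Δ than in α9α2 cells and 3 of them by 2-fold or more, the exception being 209925_at at 1.25-fold.

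TJP1 202011_at read 9.74, 9.73 and 9.91 in mock, α2/TC and α2/CI cells, 11.06 in α2Δ and 11.87 in α9α2 cells. TJP1 214168_s_at read 7.73, 7.75 and 7.80, then 8.76 and 9.78. The difference between α2Δ and α9α2 cells was thus -0.81 and -1.03 at the 2 probe sets, and only the second passed 2-fold. Against mock cells, the differences of OCLN and TJP1 in the α2 populations were between -0.21 and 0.17, so the scaffold and its strand protein lay within 1.16-fold of mock where CLDN11 and CXADR were higher.

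Among the other claudins of the set, CLDN1 moved against CLDN11 in the α2 populations. CLDN1, a claudin that tightens barriers in skin and other epithelia, read 10.60 in mock, 10.12 in α2/TC and 10.12 in α2/CI cells at 222549_at, and 9.98 in α2Δ and 10.67 in α9α2 cells. At 218182_s_at it read 8.18, 7.50, 7.24, 7.64 and 7.65. It was thus below mock in both α2 populations at both probe sets, by 0.48 to 0.94, with no difference of 2-fold. The probe sets parted between α2Δ and α9α2 cells, where the difference was -0.68 at the first and -0.02 at the second.

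CLDN4, which restricts sodium passage and binds a clostridial enterotoxin, read 6.34, 6.29, 5.99, 8.60 and 8.66 in mock, α2/TC, α2/CI, α2Δ and α9α2 cells at 201428_at. CLDN12, which lacks the scaffold-binding end of most claudins, read 6.59, 6.59, 6.64, 9.51 and 9.49 at 223249_at. Neither gene was 2-fold apart within a set of arrays, and both read higher in the second set than in the first. CLDN3 and CLDN7, claudins of gland and gut epithelia, were below the floor on all 5 arrays at their 2 and 1 probe sets, as was the second CLDN4 probe set, 1569421_at. A signal below the floor says that no transcript was detectable by these probes, not that it was absent.

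Taking the set by counts, 1 of 15 measured probe sets was at least 2-fold apart between α2/TC and mock cells, 2 of 15 between α2/CI and mock cells and 0 of 15 between α2/CI and α2/TC cells. Between α2Δ and α9α2 cells 6 of 16 were higher and 4 of 16 lower. The medians of the set were 0.02, 0.07, 0.00 and -0.04 in these 4 pairs, beside medians of 0.00 over all measured probe sets in each, so the median of the set lay close to that of all probe sets. Since the genes were chosen with these values known, nothing is read from the counts against the share of all probe sets given above. Identical values were common: of the 16 probe sets, 2 had the same value in mock, α2/TC and α2/CI cells and 5 in α2/TC and α2/CI cells, while 0 had the same value in α2Δ and α9α2 cells.

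The pair of α2/CI and mock cells and the pair of α2Δ and α9α2 cells have no array in common. Of 28047 probe sets measured in both pairs, 12 were at least 2-fold higher in the first-named population of each, and 2 of the 12 were CLDN11 228335_at and CXADR 226374_at. CLDN11 was chosen on the pair of α2Δ and α9α2 cells and CXADR with its values known, so nothing is read from their place among the 12. Of the 7 probe sets lower in both, 0 were of the set. α2/CI and α2Δ cells were both kept on collagenI, while mock cells were in standard culture and α9α2 cells on tenascin. Integrin and substrate thus differ together within each pair, and the drug also differs in the second, so within these pairs they cannot be told apart. α2/TC cells shared standard culture with mock cells, and were above them by 0.83 at CLDN11 228335_at and 1.05 at CXADR 226374_at. α2/CI cells, with the same construct on collagenI, differed from α2/TC cells by 0.44 and 0.00 there.

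**Figure D3:**
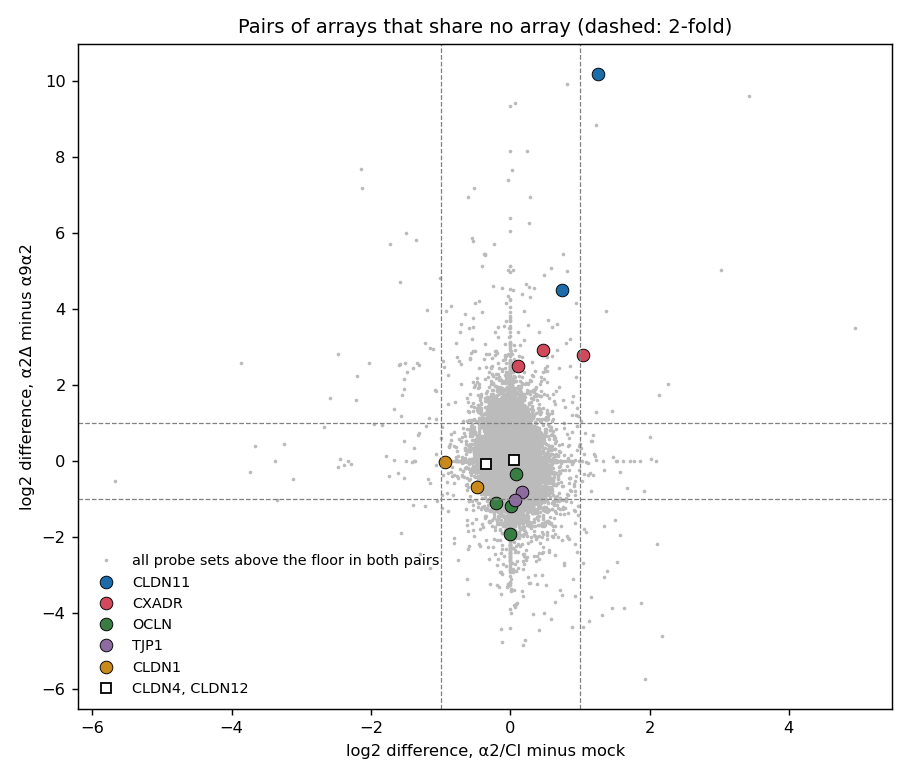
Log2 difference between α2/CI and mock cells (horizontal axis) against that between α2Δ and α9α2 cells (vertical axis), 1 grey dot per probe set above the floor in both pairs and coloured symbols for the junction genes, with dashed lines at 2-fold. CLDN11 228335_at lies at 1.27 and 10.18 and CXADR 226374_at at 1.05 and 2.80, the 2 junction probe sets past 2-fold on both axes, while CLDN1 lies left of 0 and OCLN and TJP1 lie below 0.

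Between the 2 sets of arrays, α2Δ cells had the highest CLDN11 and α9α2 cells the lowest relative to mock cells. At 228335_at the difference from mock was 3.65 (12.5-fold) in α2Δ cells, and α9α2 cells were 92.9-fold below mock, a difference of -6.54, or at least 49.5-fold below with the floor at a log2 value of 4. CXADR 226374_at was 5.12 (34.8-fold) above mock in α2Δ cells and 2.33 (5.02-fold) above it in α9α2 cells. The other CXADR probe sets did not bear out the latter, since 203917_at was 1.05 above mock as deposited and 0.24 and 0.23 above it after centring and quantile normalization, and 239155_at was at -0.18 as deposited. CLDN4 and CLDN12 were above mock by 2.26 and 2.92 in α2Δ cells and by 2.33 and 2.90 in α9α2 cells. These 2 claudins thus differed between the sets by nearly the same amount in both populations.

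These comparisons carry the shift between the sets: 37% of all measured probe sets were at least 2-fold apart between α2Δ and mock cells and 41.3% between α9α2 and mock cells, and the medians over all were 0.33 and 0.29. In the junction set 10 of 16 probe sets passed 2-fold in α2Δ cells, all higher, and in α9α2 cells 9 of 15 were higher and 2, both of CLDN11, lower. After each array was centred on its median, the split was 7 higher and 4 lower in α2Δ cells and 7 higher and 3 lower in α9α2 cells, and after quantile normalization 6 and 4, and 7 and 3. Over all measured probe sets, centring left 12.5% higher and 22.4% lower in α2Δ cells and 15.7% and 23.8% in α9α2 cells. Quantile normalization left 15.1% and 15.1% in α2Δ cells and 18.2% and 17.4% in α9α2 cells. CLDN11 228335_at, CXADR 226374_at, CLDN4 201428_at and CLDN12 223249_at kept their direction and passed 2-fold under all 3 scalings in both populations. The second CLDN11 probe set kept its direction but was 1.85, 1.01 and 0.98 above mock in α2Δ cells as deposited, centred and quantile normalized. The TJP1 probe sets passed 2-fold under all 3 scalings in α9α2 cells, but in α2Δ cells they dropped to between 0.19 and 0.70. CLDN1 was 2-fold lower than in mock cells after either rescaling at both probe sets in α2Δ cells, between -1.46 and -1.25, where the deposited values gave -0.62 and -0.54. In α9α2 cells CLDN1 218182_s_at was also 2-fold lower, at -1.33 and -1.31, while 222549_at was at -0.74 and -0.54. OCLN 231022_at and 235937_at were 2-fold lower in α2Δ cells after either rescaling, between -1.16 and -1.05. The remaining OCLN probe sets stayed above mock there, by less than 2-fold.

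**Figure D4:**
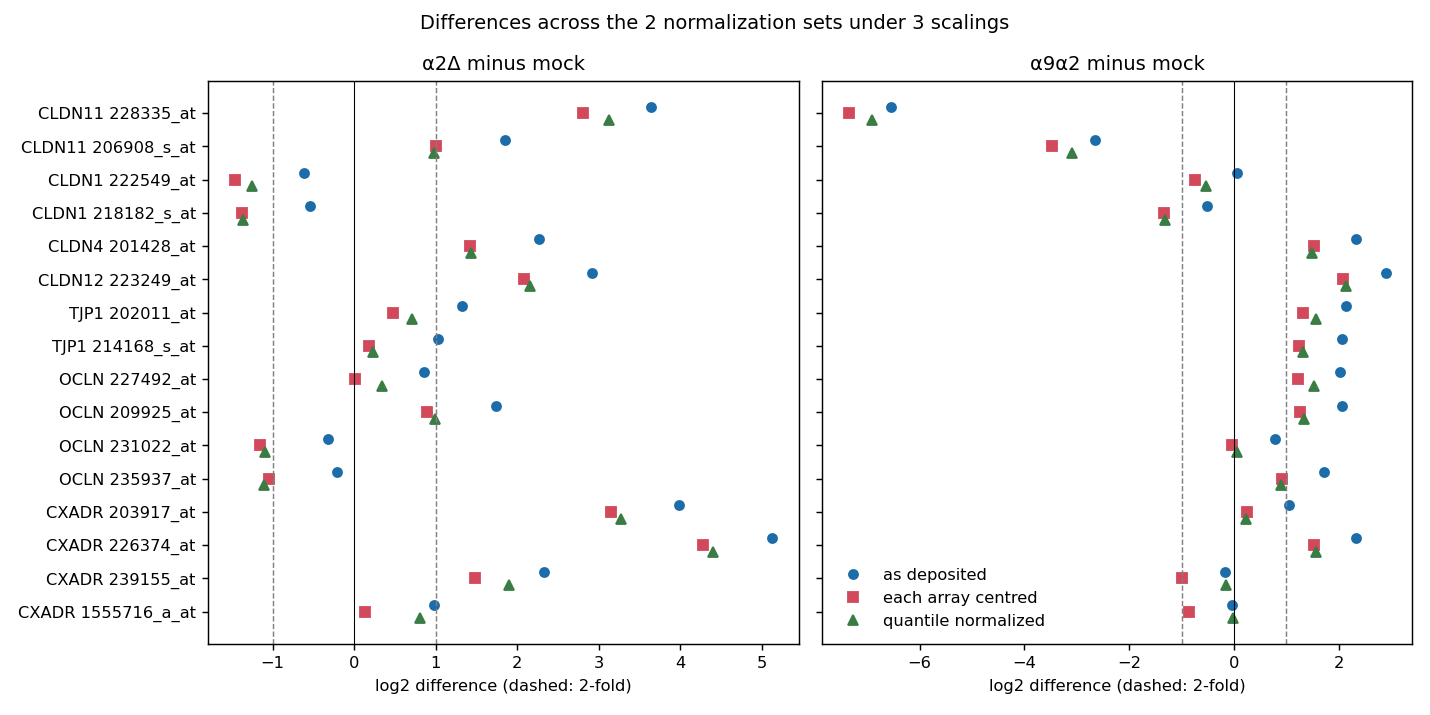
Log2 difference from mock cells (horizontal axis) of the 16 junction probe sets in α2Δ (left) and α9α2 cells (right), for the values as deposited (circles), each array centred (squares) and quantile normalized (triangles), with dashed lines at 2-fold and 1 array per population. The rescaled values lie left of the deposited ones for most probe sets, and CLDN11 228335_at stays right of 2-fold in α2Δ cells, at 2.80 to 3.65, and far left of it in α9α2 cells.

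Other genes of the junction were taken from lists by role. In α2/TC and α2/CI cells 0 probe sets of any of these lists were 2-fold apart from mock cells, beside the 0.462% and 0.492% over all probe sets. Of 18 other claudins, 14 had a probe set and 8 of these were below the floor on all 5 arrays. CLDN15, a claudin that forms sodium pores in the gut, is named although it passed no threshold, and it read between 7.33 and 8.20 at 219640_at. In this list 0 of the 6 probe sets measured between α2Δ and α9α2 cells were 2-fold apart, with a median of 0.00, beside 12.5% over all measured probe sets. CLDN5, the claudin of blood vessels, read 2.67 in the first 3 populations, 4.37 in α2Δ and 4.41 in α9α2 cells.

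Of the other membrane proteins of the junction, 0 of 9 measured probe sets were higher in α2Δ than in α9α2 cells and 1 was lower. Over all measured probe sets 7.56% were higher and 4.95% lower, and nothing is read from so few. The lower one was JAM3 212813_at, a junctional adhesion molecule, which read between 9.85 and 9.89 in mock, α2/TC, α2/CI and α2Δ cells and 11.18 in α9α2 cells. Its other 2 probe sets were under 2-fold in that pair.

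The plaque and polarity group holds scaffolds below the membrane and the complexes that place the junction at the apical side. In it, 2 of 43 measured probe sets were higher and 4 were lower in α2Δ than in α9α2 cells, with a median of -0.01. Over all measured probe sets 7.56% were higher and 4.95% lower, and nothing is read from these few probe sets against those shares. PARD3, the scaffold of the Par polarity complex, read 6.94 in each of the first 3 populations, 6.47 in α2Δ and 8.91 in α9α2 cells at 221527_s_at. The other PARD3 probe set 2-fold apart, 221280_s_at, differed by -1.45. AMOTL1, an angiomotin that binds actin and YAP at junctions, was lower by 2.29 and 1.44 at 225450_at and 225459_at. PATJ, a many-domain scaffold of the Crumbs complex that binds ZO-3 and claudins, read 4.61, 4.94, 5.13, 7.35 and 4.85 at 223681_s_at. It was highest in α2Δ cells as CLDN11 was, but lowest in mock rather than in α9α2 cells. No other PATJ probe set was 2-fold apart between α2Δ and α9α2 cells. LIN7B, a small partner of the Crumbs complex, was higher by 1.96 at 241957_x_at, but its other probe set, 219760_at, was not 2-fold apart.

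Of the regulators of the junction, 4 of 34 measured probe sets were higher and 2 lower in α2Δ than in α9α2 cells, with a median of 0.00, again beside 7.56% and 4.95% over all. Both of the lower ones were of TIAM1, an exchange factor for Rac, which read 9.14, 9.58, 9.38, 6.91 and 9.43 at 213135_at, so that α2Δ cells were the lowest population. MYL9, a myosin light chain, was higher by 2.22 at 201058_s_at, CDC42, a small GTPase of polarity, by 1.52 and 1.09 at 208727_s_at and 226400_at, and RAB13, a GTPase of junction traffic, by 1.03. The remaining MYL9 and CDC42 probe sets were not 2-fold apart in that pair. Of the epithelial program, 0 of 23 were higher and 1 was lower, CTNNA1 200765_x_at, the α-catenin of adherens junctions, by 1.03. No other CTNNA1 probe set was 2-fold apart in that pair. Of the repressors of claudins and occludin, 0 of 5 were higher and 1 was lower, ZEB1 210875_s_at, which read 6.22 in each of the first 3 populations, 7.80 in α2Δ and 8.90 in α9α2 cells. The other 3 ZEB1 probe sets differed by -0.88 (212764_at), -0.75 (239952_at) and -0.09 (212758_s_at). ZEB1 is known as a repressor of epithelial genes, and its signal was higher in α9α2 cells, where OCLN and TJP1 were also higher and CLDN11 and CXADR were lower. Whether ZEB1 acts on any of these genes in these cells was not tested.

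**Figure D5:**
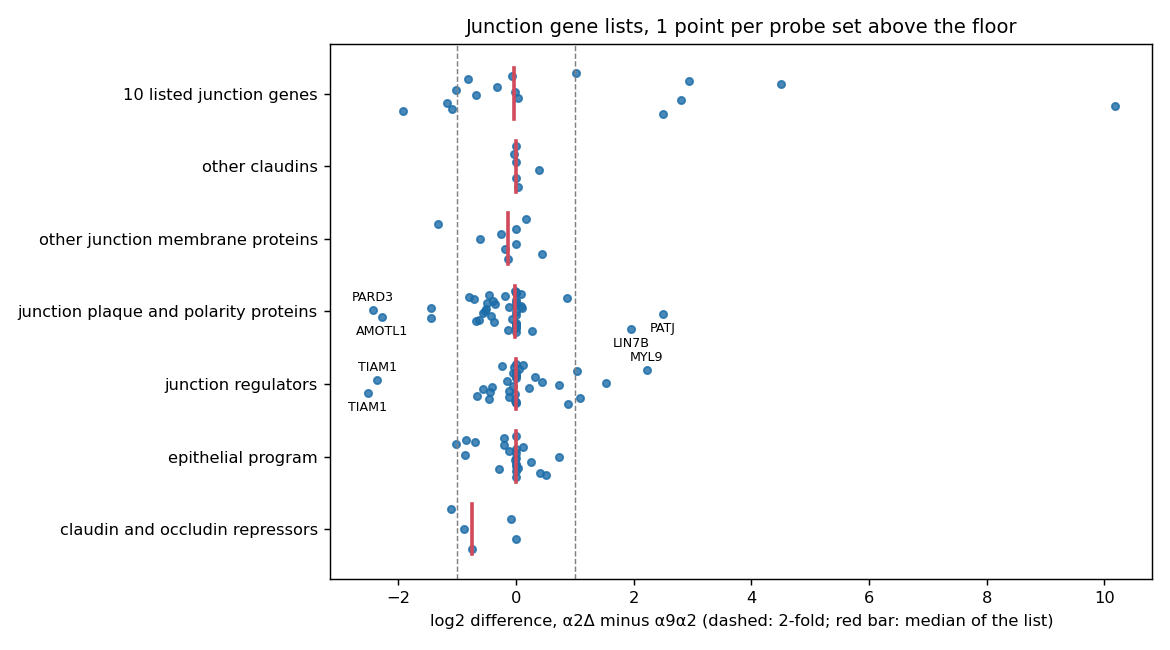
Log2 difference between α2Δ and α9α2 cells (horizontal axis) by gene list (vertical axis), 1 point per probe set above the floor on at least 1 of the 2 arrays, spread vertically for sight, with red bars at the list medians and dashed lines at 2-fold. The CLDN11 probe sets stand at 4.51 and 10.18, and CXADR 203917_at and 226374_at at 2.94 and 2.80. The other lists range from -2.52 to 2.50. CLDN11 was chosen on this difference and CXADR with its values known, so nothing is read from their place beyond that range. The list medians lie between -0.75 and 0.00.

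Markers of other states were set beside these genes. MUC1, an apical mucin of ducts, read 6.38, 6.01, 6.01, 9.56 and 8.77 at 213693_s_at and was 2.23 higher in α2Δ than in α9α2 cells at 207847_s_at. MBP, a myelin protein, was measured at several probe sets. Of 7 oligodendrocyte probe sets measured in that pair 0 were higher and 3, all of MBP, were lower in α2Δ cells. Over all measured probe sets 7.56% were higher and 4.95% lower, and nothing is read from the count. Those 3 MBP probe sets had the opposite sign to CLDN11 in that pair. TSPAN3, a tetraspanin known as a binding partner of CLDN11 in myelin, read 11.48 in each of the first 3 populations, 12.10 in α2Δ and 11.85 in α9α2 cells at 200972_at. Its other measured probe sets went opposite ways between the sets of arrays: 200973_s_at read 10.12, 10.11, 10.11, 12.32 and 11.92, and 230282_at read 3.97, 3.97, 4.13, 2.96 and 2.96. Within a set of arrays 0 of the 3 were 2-fold apart. The part of these markers in the CLDN11 values was not tested.

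The genes most like CLDN11 were found by Pearson's r to 228335_at over the 5 arrays after centring, among 320 probe sets of 260 genes whose centred values spanned at least 4 log2 units. The 5 points hold 1 array each, and the value of α9α2 cells is far from the others, so r is a description. It was 0.99 for the other CLDN11 probe set. DSG2, a desmosomal cadherin of another kind of cell junction, had 0.99 and read 7.72, 8.14, 8.20, 9.48 and 4.57 at 217901_at, in the order of CLDN11. MDFIC, an inhibitor of myogenic factors, had 0.99 and read 5.11, 5.60, 5.91, 7.91 and 2.90 at 211675_s_at, in the same order. ARHGAP29 had 0.96, PARD6G-AS1, an antisense RNA, 0.94 and TMEM40, a membrane protein, 0.94. Of the 320 probe sets, 5 had an r over 0.95 and 12 over 0.9, and 5 had the arrays in the order of CLDN11. Each of these counts includes the other CLDN11 probe set, 206908_s_at.

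CLDN11 lies at chr3:170418868-170434691 of GRCh38.p14. Its 3 nearest named protein-coding neighbours on either side were PHC3, PRKCI and SKIL, and SLC7A14, RPL22L1 and EIF5A2, and 0 of their probe sets were 2-fold apart within a set of arrays. SLC7A14 was below the floor on all 5 arrays. The largest differences between α2Δ and α9α2 cells were -0.71 for PRKCI, a kinase of the Par complex, and 0.69 for RPL22L1, a ribosomal protein. They are given beside the 10.18 of CLDN11, which was chosen on that pair, so nothing is read from the contrast.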

How the data were processed

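RNA of 5 MIAPaCa2 populations was hybridised to 1 Affymetrix array each, and groups follow the submitters' labels. The authors deposited 1 normalized log2 value per probe set and array (GCRMA and MAS5 are the tools named in the submitters' processing notes, their roles and versions unstated). That the scale is log2 was read from its range. Of 54675 probe sets, 62 controls were left out, and 41091 of the rest mapped to a single gene in the platform annotation, 1801 to several and 11721 to none.

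Values below the floor (95th percentile of 107 odorant receptor probe sets on each array) were raised to it, and a difference from a floored value is a lower bound. Differences were counted at 2-fold over all measured probe sets, with no test because each group had 1 array. The 10 genes, the gene lists and the marker lists were chosen with earlier results of these data known. Within each list, genes at least 2-fold apart within a set of arrays were named, at most 4 per pair, and others by counts and range or chosen after their values were seen. CLDN12 has a further probe set that the annotation shares with another gene, which was left out. Motifs were searched in RefSeq promoters. Scripts ran in Python 3.11.15 with numpy 2.4.6, pandas 2.3.3 and matplotlib 3.10.9 and were tested on simulated data. Other floors, scalings, fold thresholds and probe set classes were tried.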

Additional observations from a re-analysis of the deposited data

How the results depend on the processing

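No paired analysis was possible because each population had 1 array and so the groups shared fewer than 2 replicate numbers. The CLDN11 differences at 228335_at kept their direction and their side of 2-fold without a floor, with a floor at a log2 value of 4, with each array centred and after quantile normalization: from 9.27 to 10.18 for α2Δ minus α9α2 cells, 1.24 to 1.27 for α2/CI minus mock, 0.81 to 0.83 for α2/TC minus mock, 2.80 to 3.65 for α2Δ minus mock and -7.34 to -5.63 for α9α2 minus mock cells. Counts of junction probe sets moved with the threshold, since fewer pass a higher one. At 1.5-fold the count was 5 for α2/TC and 4 for α2/CI against mock cells, beside 1.17% and 1.77% of all measured probe sets. At 3-fold it was 0 and 0, beside 0.171% and 0.172%, and 6 for α2Δ against α9α2 cells, beside 3.82%. Of 90 differences of other junction probe sets, centring left 79 on the same side of 2-fold, quantile normalization 78, a floor at 4 left 87 and no floor left 90. Within a set of arrays the changes were in CXADR, where 1555716_a_at fell to 0.99, 0.81 and 0.00 under centring, quantile normalization and the higher floor, and 239155_at to 0.74 under the higher floor. A signal near the floor gives a bound only.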
